A study of Triticum aestivum and Triticum monococcum subsp. aegilopoides x Triticum urartu with 8 samples.

Results

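A set of 194 array probes stood far lower in diploid wheat hybrids with type IV necrosis than in wild-type diploid hybrids, while they differed little between the wild-type and type I necrosis hybrids of hexaploid wheat. A level is the log2 processed intensity of a probe less the 75th percentile of that array, taken over transcript probes. Members were the transcript probes well above background on both diploid wild-type arrays and on all 4 hexaploid arrays, with no outlier flag on any array, a type IV difference of -3.5 or lower and a type I difference between -1 and 1. Of 37826 transcript probes, 21812 met the background and flag conditions and 194 of these (0.889%) were members. The members were thus chosen by the measured differences of both comparisons on all 8 arrays, so their own sizes are given as a description and support nothing.

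The first leaves of 1-week-old seedlings grown at 23 °C without treatment gave RNA that was labelled with Cy3, and each RNA sample was hybridised to 1 single-colour Agilent array. The wild-type and type I necrosis groups were hybrids of hexaploid common wheat (Triticum aestivum), and the wild-type and type IV necrosis groups were diploid hybrids between Triticum monococcum subsp. aegilopoides and Triticum urartu. Each of the 4 groups had 2 arrays, which the design text calls independent experiments without naming the plants they came from. A p-value here covers the spread between these arrays, which may be technical. Parental lines and the alleles that cause necrosis were not given in the sources used here. Wild-type and necrosis plants of a wheat were different hybrids, so necrosis and any other difference in their parentage cannot be told apart.

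Hybrid necrosis is the dying back of leaves in a hybrid whose parents are both healthy, without an infection. It arises when alleles that are harmless in each parent meet in the hybrid, and in Arabidopsis several such pairs involve immune receptors that become active without a pathogen. Necrotic leaf tissue loses chlorophyll and working cells, and in a leaf extract less RNA per cell and fewer cells of a type that makes a transcript cannot be told apart.

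The 4 hexaploid arrays lay on one slide and the 4 diploid arrays on another, so effects of slide and wheat cannot be told apart, and no level was compared between the wheats. Position on the slide went with necrosis. The array percentile used for scaling was an intensity of 558 to 591 in the diploid wild type, 1207 to 1509 in type IV and 1681 to 2409 in the hexaploid groups. Between 23626 and 28765 transcript probes were well above background on an array, and none was saturated. The brightness of 2 different probes also depends on their sequence and does not rank transcripts by amount. Probe sequences and gene annotation were not used here. None of the probe names matched the RefSeq gene table of the Chinese Spring assembly, and none of the members carried a gene symbol, so members are named by their clone or contig and no function is given. For the same reason the leaf label could not be set against leaf marker genes. The 6 probes that carry a symbol, all of cold- and drought-response genes, are not members. Of these only RD29B and Wcor15 were above background on any array, and their type IV differences were -0.89 (limma adjusted p = 0.0014) and -0.37 (limma adjusted p = 0.244).

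Measured differences between type IV necrosis and diploid wild type ran from -10.04 to -3.502 among the members, with a median of -4.26, beside a median of -0.05 over all probes tested in that comparison. Type I differences ran from -0.97 to 0.98 with a median of -0.13, beside 0.07 over all probes tested. The median member level in the hexaploid was -1.63 and -1.62 for wild type against -1.72 and -1.70 for type I. In the diploid it was -1.27 and -1.39 for wild type against -6.52 and -6.88 for type IV. The type IV arrays are low and the other arrays of either wheat are not, which is what the rule asked for. The type IV medians lie under the lowest level of any probe well above background there, -5.63 and -5.56. Room for a fall in type I was limited for the dimmer members. The 25th percentile of the members in hexaploid wild type was -3.36. The lowest levels well above background on the type I arrays were -6.69 and -6.79, and a fall of 3.5 from -3.36 would end below both.

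**Figure D1:**
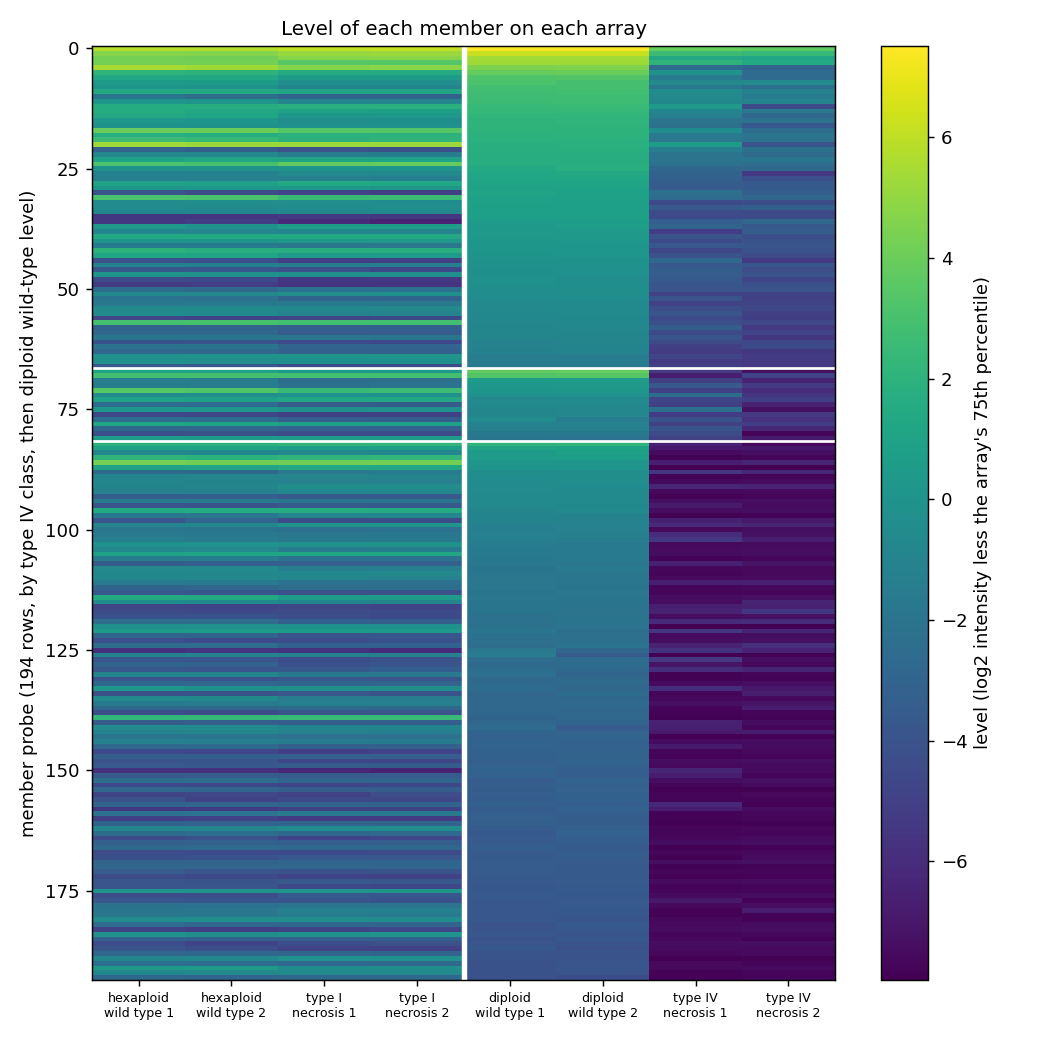
Each row is 1 of the 194 members and each column 1 of the 8 arrays, with colour giving the level (log2 intensity less the 75th percentile of the array). White lines separate the hexaploid from the diploid arrays and members above background on 2, 1 or 0 type IV arrays (67, 15 and 112 members); the darkest cells lie in the 2 type IV columns.

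The threshold on the type I difference did much to set the size of the group. At the type IV threshold alone, 414 of the 21812 probes qualified, and 213 of them were left out because they stood more than 1 lower in type I as well. A further 7 were left out because they stood more than 1 higher. A separate count asked for signal well above background on the wild-type arrays of both wheats only, with no outlier flag. By it, 63 probes met the threshold of -3.5 in both necrosis types, and these need not be among the 414. The mirrored rule, with the types exchanged, gave 35 probes. It asked for signal well above background on both hexaploid wild-type arrays and all 4 diploid arrays, so its eligible probes were not the same. The edges of the group hold no gap. Just inside the type IV threshold were whh9e13 (-3.502), whsh_allContig459 (-3.514) and whsh5f07 (-3.515), and just outside were wheat0130Contig43, whsh_allContig943 and rwhva18d24_503, at -3.497, -3.495 and -3.493. Below the lower type I limit, the nearest probes left out were MUGEST2003_23lib_Contig7395_574, whsh_allContig1141 and whvd5l10_117, with type I differences of -1.01, -1.01 and -1.02. Above the upper limit they were rwhyf17m06, whf19m21 and MUGEST2003_23lib_Contig12487_834, at 1.04, 1.12 and 1.13.

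**Figure D2:**
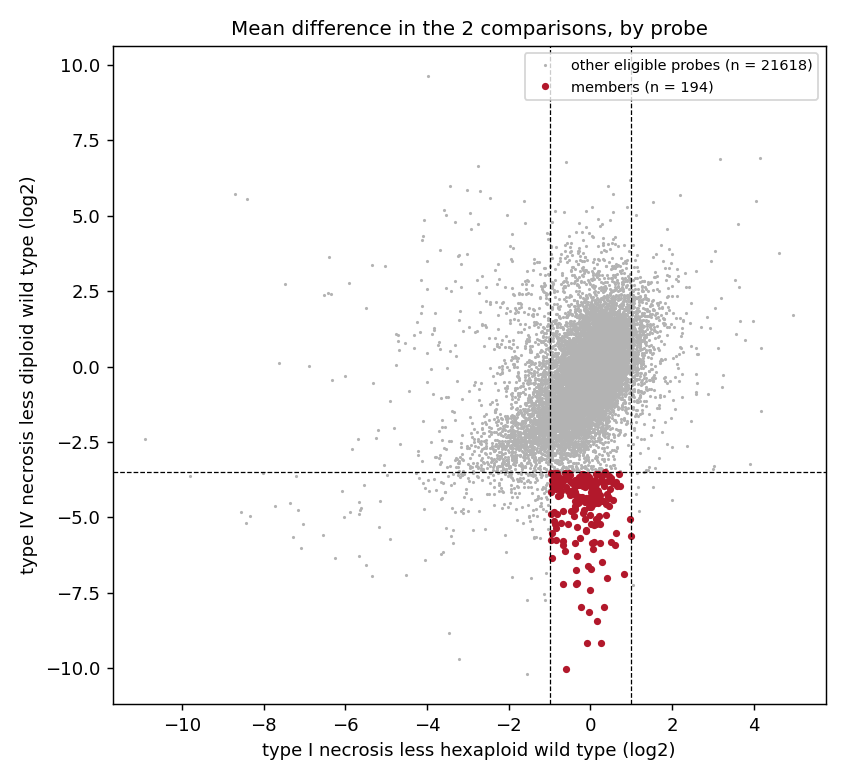
Each point is an eligible probe, with the difference between type I necrosis and hexaploid wild type on the horizontal axis and between type IV necrosis and diploid wild type on the vertical axis, both as log2 means of 2 arrays a group. Dashed lines mark the thresholds, and the 194 members in red fill the lower middle field, next to probes beyond the left line that stood lower in both types.

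The members fell into 3 classes by what remained on the type IV arrays. For 112 members neither type IV array was well above background. Their size there is a lower bound, the diploid wild-type mean against, per array, the higher of the probe's own value and the lowest level among probes well above background. These bounds ran from 2.64-fold to 216-fold lower with a median of 6.90-fold, and 48 of the 112 were at least 8-fold lower. They were computed on the array percentile scale and need not hold on another. With spike-in scaling the median type IV difference of all members was -2.92, in place of -4.26. For 67 members both type IV arrays were still well above background, and these were 11.4-fold to 149-fold lower with a median of 14.6-fold. The other 15 were above background on a single type IV array, array 1 for 14 of them and array 2 for 1. The word "lost" thus holds for 112 of the 194 only in the sense that neither type IV array was well above background. These are called the undetected class here, while 67 were reduced but still detected. With dim type IV values set to the lowest level above background, an alternative added after seeing the data, 118 members still stood at -3.5 or lower, and 39 of these were from the undetected class.

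The dim class was also dimmer in wild type. Its median level in diploid wild type was -2.81, against 0.80 for the members that stayed detected, so the bounds of the former are held down by how little room lay above the floor. Negative control spots give a second floor. Among the members, 80 on type IV array 1 and 92 on type IV array 2 were at or below the 95th percentile of the 153 negative control spots of that array, and 76 were so on both. None was on any of the other 6 arrays, where the rule had asked for signal well above background, so nothing is read from that contrast. The local background beside the members was like that of the whole array, with medians of 35 and 33 units on the type IV arrays for members and for all transcript probes alike.

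**Figure D3:**
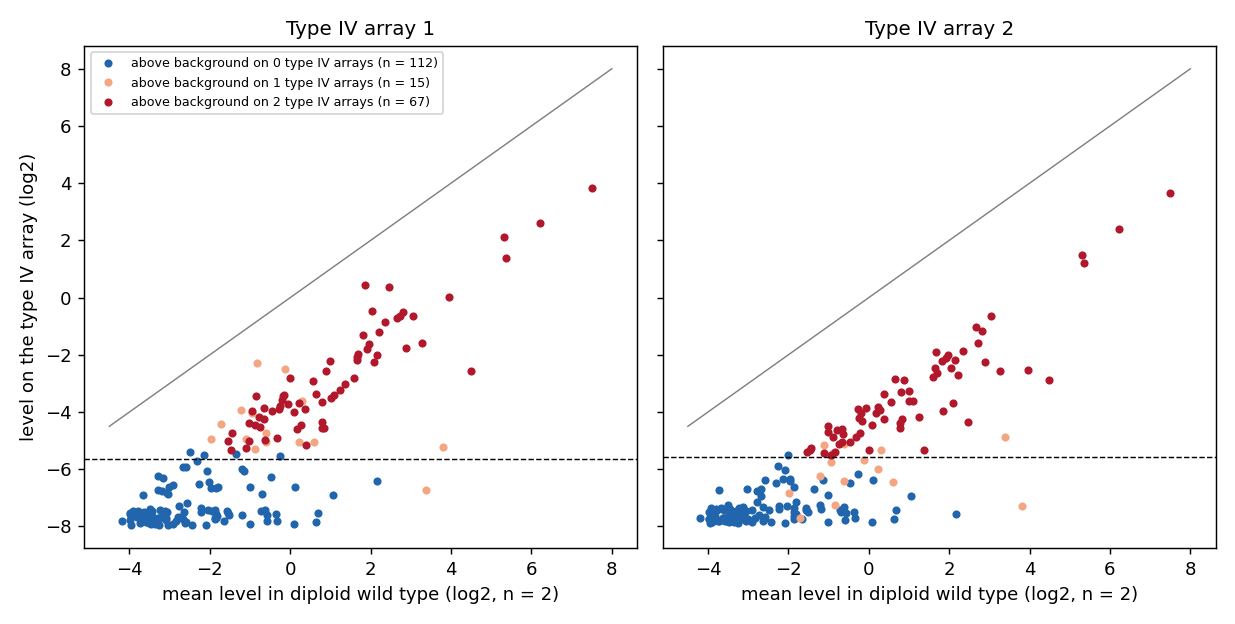
Each panel sets the level of the 194 members on 1 type IV array (vertical) against their mean level on the 2 diploid wild-type arrays (horizontal), both log2. The grey line marks equal levels and the dashed line the lowest level of any probe well above background on that array. Members of the undetected class (blue, 112) lie flat along the floor near -7.5, while those detected on both arrays (red, 67) run parallel to the grey line. Both patterns follow largely from how the classes and the rule were set.

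The probe MUGEST2003_23lib_Contig6144_p_150 had the most negative difference, -10.04. In the hexaploid its levels were 0.99 and 0.98 for wild type and 0.39 and 0.41 for type I. In the diploid they were 3.77 and 3.83 for wild type and -5.21 and -7.27 for type IV. The diploid wild-type arrays read unscaled intensities of 8079 and 7933, and the type IV arrays 32.6 and 9.78. Only the first of the type IV arrays was above background, so the size is not exact.

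MUGEST2003_23lib_Contig3617_482 was the other member of the 10 most negative that was above background on 1 type IV array, here the second. It stood at 2.88 and 2.97 (wild type) and 2.89 and 2.81 (type I) in the hexaploid, and at 3.34 and 3.42 (wild type) and -6.71 and -4.88 (type IV) in the diploid. Its 6 wild-type and type I values lie close together within each wheat, and both type IV values lie far below.

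The widest bound belonged to wheat0130Contig4835, at least 216-fold lower in type IV on the array percentile scale. Its measured type IV difference was -9.15 on that scale, -7.81 with spike-in scaling and -5.97 with normexp background correction. The probe was at 1.97 and 1.90 (wild type) and 2.14 and 2.24 (type I) in the hexaploid, and at 2.09 and 2.23 (wild type) and -6.43 and -7.56 (type IV) in the diploid. For wheat0130Contig12609 the levels were 0.96 and 0.99, 0.73 and 0.75, 1.09 and 1.03, and -6.90 and -6.94 in the same order of groups, at least 101-fold lower. Neither probe was above background on a type IV array, and their type IV intensities of 8.01 to 14.0 compare with 1143 to 2622 in diploid wild type.

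Of the remaining probes among the 10 most negative, rwhr19k15 was at least 77.6-fold lower, with diploid wild-type levels of 0.51 and 0.85 and type IV levels of -7.52 and -7.41. The probe whv16n12k19_124 was at least 74.996-fold lower, from 0.57 and 0.69 to -7.85 and -7.75. For wheat0130Contig7124 the bound was 51.3-fold, for MUGEST2003_23lib_Contig21402_p_1147 38.3-fold and for rwhyd29e21 32.3-fold. In each of these the diploid wild-type arrays lay together and both type IV arrays lay at the floor.

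Members that stayed detected show sizes that need no bound. The probe whsh_allContig1100 was at 5.46 and 5.29 (wild type) and 4.65 and 4.75 (type I) in the hexaploid, and at 4.49 and 4.50 (wild type) and -2.56 and -2.89 (type IV) in the diploid. It was 149-fold lower in type IV, from 4.50 ± 0.01 to -2.73 ± 0.24 (SD, n = 2 each), and its type I arrays too lay below both hexaploid wild-type arrays, with a mean difference of -0.68. Next among the members detected on all 8 arrays came MUGEST2003_23lib_Contig5825_116 (46.4-fold lower), MUG012E03R990610 (40.9-fold), wheat0130Contig8980 (38.0-fold) and MUGEST2003_23lib_Contig3992_913 (37.7-fold). For MUGEST2003_23lib_Contig5825_116 the type IV arrays lay far apart, at -3.02 and -5.33, so its size is a mean of unlike values. In the hexaploid wheat0130Contig8980 was near background, at -5.47 and -5.60 in wild type and -5.40 and -5.51 in type I. A fall in type I thus had little room to show. The probe MUGEST2003_23lib_Contig3992_913 was close to even in the hexaploid, at -0.47 and -0.38 in wild type and -0.39 and -0.45 in type I, and went from 0.88 and 0.79 to -4.56 and -4.24 in the diploid. MUG012E03R990610 differed in both wheats, from 1.29 on both hexaploid wild-type arrays to 0.44 and 0.45 in type I, and from 3.22 and 3.32 to -1.59 and -2.57 in the diploid.

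Among the brightest members, signal in type IV was far from the floor. The probe wheat0130Contig10120 read unscaled intensities of 108176 and 100408 for diploid wild type and 17369 and 18864 for type IV. Its levels were 7.52 and 7.49 against 3.85 and 3.64, 13.5-fold lower, while in the hexaploid it was at 5.80 and 5.74 in wild type and 6.02 and 6.10 in type I. The type I arrays of this probe lie above their wild type and the type IV arrays below theirs. The same arrangement was seen in wheat0130Contig13302 (4.69 and 4.62, then 5.12 and 5.20 in the hexaploid; 6.22 on both diploid wild-type arrays, then 2.62 and 2.40; 13.1-fold lower in type IV). It was also seen in rwhsh4k23, at 4.29 and 4.18 against 4.69 and 4.74 in the hexaploid and 5.37 and 5.34 against 1.39 and 1.20 in the diploid, 16.7-fold lower. The probe whsh5f07 was instead lower in both, at 4.30 on both hexaploid wild-type arrays against 3.52 and 3.46 in type I, and 5.29 and 5.34 in diploid wild type against 2.12 and 1.47 in type IV, 11.4-fold lower. On these 4 bright probes even the lowest type IV intensity, 3156 for rwhsh4k23, is over the 75th percentile of its array. Their sizes rest on the scaling. With spike-in scaling the type IV differences were -2.41 for wheat0130Contig10120, -2.37 for wheat0130Contig13302, -2.72 for rwhsh4k23 and -2.17 for whsh5f07. All were still called lower, but none reached the rule's threshold of -3.5.

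In the fit of all 8 arrays, 45 of the 194 members were called lower in type I, where 19.6% of all probes tested were called lower, and 20 were called higher, where 22.9% were, or 65 in either direction, where 42.5% were. The other 129 were not called, which does not show that they were unchanged. The spread of the type IV arrays enters that fit. Fitted on the hexaploid arrays alone, 86 members were called lower (29.4% of all probes tested) and 39 higher (38.4%), or 125 in either direction (67.8%). With spike-in scaling 0 members were called lower and 6 higher. The share over all probes was not computed for that setting, so its counts cannot be set against the shares above. The rule bounded the type I difference, so nothing is read from these counts or their direction. In type IV, 193 members were called lower (39.1% of all probes tested), or 191 with the diploid arrays fitted alone (34.1%), and in the test of the difference between the effects 191 were called more negative in type IV (33.0%). Both counts follow from the rule.

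The lowest type I differences were those of MUGEST2003_23lib_Contig1592_771 and whsh_allContig621, both -0.97, and of a member named by a database number, -0.96. For MUGEST2003_23lib_Contig1592_771 the levels were 0.09 and 0.03 (wild type) and -0.88 and -0.94 (type I) in the hexaploid, and 2.63 and 2.69 (wild type) and -0.73 and -1.03 (type IV) in the diploid. This probe thus stood lower in both necrosis types, with groups that do not overlap in either wheat, and the name of the set describes it only by size. The highest type I differences were those of wheat0130Contig14151 and wheat0130Contig3802, both 0.98, and rwhsl19i15, 0.83. The probe wheat0130Contig3802 was at -1.0003 and -0.81 (wild type) and at 0.07 on both type I arrays in the hexaploid, and at -1.10 and -1.19 (wild type) and -6.06 and -6.38 (type IV) in the diploid, at least 21.8-fold lower. Over the whole set, 118 members had a type I difference below 0 and 134 lay within 0.5 of 0.

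The type IV arrays did not give the same size for every member. They lay more than 1 apart on the log2 scale for 38 members and more than 2 apart for 12, while the diploid wild-type arrays lay more than 1 apart for only 2 members, wheat0130Contig6248 and whrd3m03_37. Over all members the median gap was close to that of other probes. Between the type IV arrays it was 0.224 for members and 0.216 for eligible probes, against 0.078 and 0.071 between the diploid wild-type arrays. By class the median type IV gap differed. It was 0.464 for the 67 members detected on both type IV arrays, 1.72 for the 15 detected on 1 and 0.101 for the 112 on neither. Among the 67 members detected on both type IV arrays, array 2 was the lower in 52, with a median difference of 0.37 (array 1 less array 2). Over the 21064 eligible probes above background on all 8 arrays, array 2 was the lower in 46.8%, with a median difference of -0.03. Taken singly against the wild-type mean, 154 members were at -3.5 or lower on type IV array 1 and 190 on array 2.

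**Figure D4:**
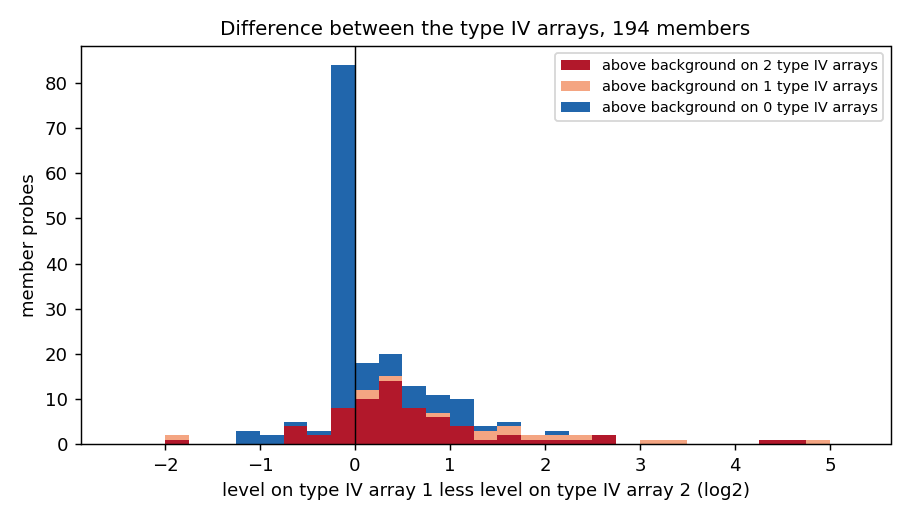
Bars count members by the level on type IV array 1 less that on type IV array 2 (log2, horizontal axis), coloured by the number of type IV arrays above background. Members detected on both (red) lie mostly to the right of 0, 52 of 67, with a tail to beyond 4, and undetected members (blue) pile up next to 0.

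The 3 members with the widest gap show what this does to a mean. The probe MUGEST2003_23lib_Contig17866_841 had diploid wild-type levels of -0.86 and -0.80 and type IV levels of -2.27 and -7.24. It was the member not called in type IV. For wheat0130Contig2358 the wild-type levels were 2.40 and 2.53 and the type IV levels 0.37 and -4.35, and for a member named by a database number they were 1.82 and 1.88 and then 0.45 and -3.98. All 3 type IV values of array 1 lie below both wild-type arrays, but by far less than the rule's threshold, so these probes are members through array 2.

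Some clones and contigs carry more than 1 probe on the array, and the other probe's value did not decide whether the first was a member. It did decide whether the other probe was a member itself. Of the 194 members, 33 had such a companion, a probe that shares the clone or contig name, and in 3 pairs both probes were members. In these pairs rwh8i05, whoh11o15 and whkv2i07_777 were not above background on either type IV array and were at least 13.3-fold, 5.29-fold and 8.004-fold lower. Their partners wh8i05 and rwhkv2i07_293, each above background on 1 type IV array, had measured differences of -4.47 and -3.86, and rwhoh11o15, detected on both, had -3.78. A further 28 companions were not members. Of these, 18 were not well above background on both arrays of either diploid group and were not tested, among them 11 that were above background on no array.

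Companions low enough to meet the rule are members and so missing from these 28, and the tally below is a description from which no share is read. Of the 10 companions tested, 6 were called lower in type IV, where 39.1% of all probes tested were, 3 were called higher, where 33.9% were, and 1 was not called (limma, adjusted over all 24631 probes tested). With the 6 member companions included, 12 of 16 were called lower. The lower ones outside the set ranged widely. The probe whfl27n24 read -3.58 and -3.75 in the diploid wild type, and neither type IV array was above background, so that it was at least 3.81-fold lower (limma adjusted p = 9.03e-06), beside a member, rwhfl27n24, that was at least 13.8-fold lower. The probes whoh26m02 and whr6h03 were at least 3.42-fold (limma adjusted p = 4.37e-05) and at least 2.12-fold lower (limma adjusted p = 0.000155). With spike-in scaling their measured differences were -2.31 and -2.06, in place of -3.66 and -3.40. The probe whrd4p13_560 was above background on all 8 arrays and went from -2.39 and -2.30 to -5.37 and -5.04, a difference of -2.86 (SE 0.14, limma adjusted p = 2.58e-05).

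Other companions moved much less than their member. The probe whoh1j21 went from 4.07 and 4.06 in the diploid wild type to 2.43 and 2.12 in type IV, a difference of -1.79 (SE 0.11, limma adjusted p = 5.74e-05), while its member rwhoh1j21 had -5.24. With spike-in scaling the difference of whoh1j21 was -0.45 and not called. For whei15m16_p_133 the difference was -0.84 (SE 0.12, limma adjusted p = 0.00143), and with spike-in scaling it was 0.50 and not called. Its member rwhei15m16_129 was not above background on either type IV array and was at least 12.5-fold lower. The probe whsl19i15 had wild-type levels of -4.49 and -4.10 and type IV levels of -4.33 and -4.25 in the diploid, a difference of 0.00 (SE 0.15, limma adjusted p = 0.978), while its member rwhsl19i15 went from -1.003 and -1.01 to below background, at least 24.0-fold lower. This value of whsl19i15 rests on the processing, since it was 1.35 with spike-in scaling and -0.64 with normexp, called in both cases and in opposite directions. On the main scale the wild-type and type IV arrays of whsl19i15 overlap, and those of rwhsl19i15 are far apart.

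The 3 remaining companions went the other way from their member. The probe rwhoh11a11 had no diploid wild-type array above background and read -2.46 and -2.45 in type IV, at least 6.36-fold higher (limma adjusted p = 2.6e-06). Its member whoh11a11 went from -2.19 and -2.26 to -7.49 and -7.38, at least 10.3-fold lower. MUGEST2003_23lib_Contig21402_m_1231 went from -1.76 and -1.72 to -0.95 and -0.26, a difference of 1.14 (SE 0.23, limma adjusted p = 0.00532), beside a member from the same contig that was not above background in type IV and at least 38.3-fold lower. MUGEST2003_23lib_Contig6144_m_25 went from -5.20 and -4.59 to -3.40 and -3.21, a difference of 1.59 (SE 0.20, limma adjusted p = 0.000773). It shares its contig with the member of the most negative difference, and only 1 of its diploid wild-type arrays was above background. With normexp background correction its difference was -0.0051 and not called. The difference between the effects (type IV less type I) was tested for 15 companions outside the set, those tested in either wheat. It was called more negative in type IV for 9 (33.0% of all probes tested) and more positive for 1, rwhoh11a11 (18.7%). Of these 15, 8 had been tested in each wheat, with 4 called more negative and 1 more positive. In the rest, 1 of the 2 effects is between values at or near background.

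For comparison, 836 pairs of eligible probes share a clone or contig name, and the median absolute difference of their type IV differences was 0.28. In the 9 of these pairs that hold a member it was 2.01. Members were chosen for an extreme value, which by itself widens such gaps. What a leading "r", "_p_" or "_m_" in a probe name stands for is not stated by the files or labels, so whether a pair reads the same transcript, or the same strand of it, was not tested.

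**Figure D5:**
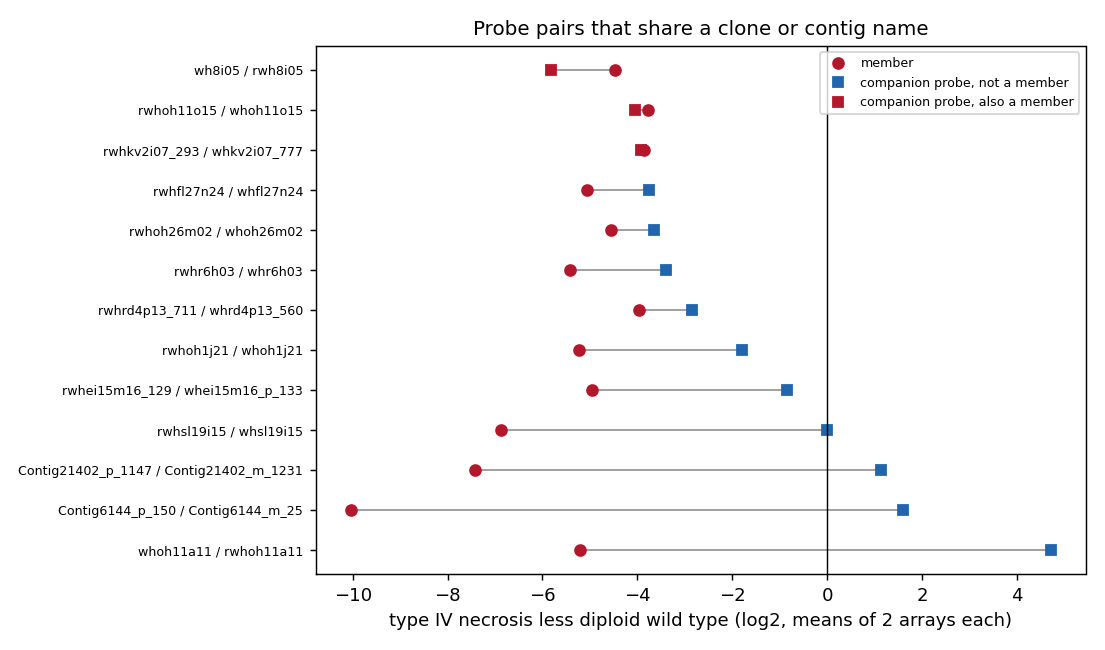
Each row is a pair of probes that share a clone or contig name, with the type IV necrosis less diploid wild type difference (log2, means of 2 arrays each) of the member as a circle and of its companion as a square. The top 3 pairs hold members only; of the 10 companions in blue, 6 lie left of 0, 1 at 0 and 3 to the right, up to 4.70 for rwhoh11a11, and probes below background are drawn at their measured values.

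Members were spread over the array and over the sources of its probes. With the array's rows cut into 4 equal bands, 55, 52, 47 and 40 members were found, or 1.03%, 0.942%, 0.845% and 0.743% of the eligible probes there. By the form of the probe name, wheat0130 contigs gave 72 members (0.783% of eligible probes of that form), MUGEST2003 contigs 45 (1.18%), clones starting with rwh 29 (1.15%) and clones starting with wh 22 (0.650%). The whsh_all contigs gave 11 (1.35%), whfl_all contigs 7 (0.818%), MUG clones 6 (0.587%) and database numbers 2 (2.15%). These shares are a description and were not tested.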

How the data were processed

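Members, lists and tests were chosen with earlier results of these data known. The authors deposited scanner files with 1 spot for each of 37826 transcript probes. Processed intensities were background-corrected by Agilent Feature Extraction (version 10.10.1.1, protocol GE1_1010_Sep10, per the file headers; version 9.5 per the submitters' processing notes). The authors' deposited value table equals these intensities times 1 factor per array (0.926 to 3.12), is linear and not centred, and was used as an alternative. Log2 of the deposited intensity less the 75th percentile of the array was computed here. Control spots (1417) and 68 probes with an outlier flag were left out.

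Limma 3.58.1 in R 4.3.3 fitted 1 mean per group over all 8 arrays (4 residual and 1.73 prior degrees of freedom). Probes entered a comparison when both arrays of either of its groups were well above background, with Benjamini-Hochberg adjustment, two-sided, at 0.05. The script was tested on simulated data. The scanner files hold no mean signal column, so normexp (offset 50) used the deposited median and background median intensity. Spike-in scaling used the 4 E1A probes above background on every spot. Median centring, quantile normalization, other thresholds, no filter on dim probes, a replicate block, separate fits and leaving out each array were also tried.

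Named members were the 10 with the most negative type IV difference, the first 5 of these among members above background on all 8 arrays, the 5 brightest in diploid wild type, the 3 with the widest type IV gap, the 3 with the lowest and the 3 with the highest type I difference, and 3 on either side of the type IV threshold. Any member with a gene symbol would also have been named. Lists of photosynthesis, defence, oxidative stress, clock, cell wall and nutrient genes could not be read, since no probe outside the cold and dehydration list carried such a name. The number of arrays limits the precision.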

Additional observations from a re-analysis of the deposited data

Results flagged for a closer look

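The effects of the necrosis types differed, by the test of the difference itself (type IV less type I, limma), for 191 members. The rule used both effects, so this is no finding. Among the 29 named members the difference was called for 26, and over the named members that were called it ran from -9.45 for MUGEST2003_23lib_Contig6144_p_150 to -2.57 for MUGEST2003_23lib_Contig1592_771.

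Among the companion probes outside the set, the difference between the effects was called for 10 of the 15 tested. It was more negative in type IV for 9 (33.0% of all probes tested) and more positive for 1 (18.7%). Of the 8 tested in each wheat it was called for 5, with 4 more negative and 1 more positive. Nothing is read from these small counts. The values follow. For these 5 the difference between the effects was -3.44 for whr6h03, -2.46 for whrd4p13_560, -1.09 for whoh1j21 and -0.56 for whei15m16_p_133, each more negative in type IV. It was 4.24 for rwhoh11a11, more positive in type IV. The other 5 were at or near background in one of the wheats, so these calls do not compare responses: whoh26m02 (-3.71), whkp16e09_712 (-2.80), whyf13a21 (-1.58), whec3m16_527 (-1.28) and whfl27n24 (-1.25). Among the first 5, whr6h03 was above background on neither type IV array, and rwhoh11a11 on neither diploid wild-type array. Their sizes of -3.44 and 4.24 are thus not exact. The probe whrd4p13_560 was near background in the hexaploid, at -5.29 and -5.57 in wild type and -5.84 and -5.81 in type I. The lowest levels well above background on the type I arrays were -6.69 and -6.79. A type I fall as large as its type IV difference of -2.86 could not have been measured. The groups hold 2 arrays each, so no array could be tested as an outlier.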

How the results depend on the processing

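The size of the group rests on scaling and background correction. In place of 194 members there were 66 with spike-in scaling (53 of them shared), 50 with normexp (45 shared), 323 and 118 with a threshold of -3 and -4, and 118 with dim values at the lowest level above background, chosen after seeing the data. Leaving out 1 array gave 170 to 262, with the highest count without type IV array 1 and the lowest without array 2. The median type IV difference of the members, -4.26, became -3.93 with quantile normalization within each wheat, -2.92 with spike-in scaling, -2.76 with normexp and -3.66 with dim values at that lowest level. It was -4.39 to -4.19 with 1 array left out. Their median type I difference, -0.13, was -0.073 with median centring, -0.079 with quantile normalization over 8 arrays, -0.072 within each wheat, -0.10 in the authors' value table, -0.15 with normexp, 0.28 with spike-in scaling and -0.13 to -0.11 with 1 array left out. Members called in type I, 65 in either direction, numbered 6 with spike-in scaling, 43 with the replicate block, 125 in the hexaploid arrays alone and 24 to 117 with 1 array left out, with the lowest counts without a hexaploid array and 117 without either type IV array. The cause was not tested. Same-numbered arrays did not deviate together (correlation -0.09 in the hexaploid and -0.01 in the diploid), so the numbers are not shown to pair the arrays. Counts of members called lower in type IV (191 to 194) and more negative there than in type I (182 to 194) stayed within 1.5 times under the alternatives run. The companion whei15m16_p_133 was at 0.50 with spike-in scaling. For whsl19i15 the difference was -0.64 with normexp (called), -0.19 or 0.20 without diploid wild type array 1 or 2, -0.03 without type IV array 2 and 1.35 with spike-in scaling (called), and for MUGEST2003_23lib_Contig6144_m_25 it was -0.0051 with normexp. The difference of whoh1j21 was -0.45 with spike-in scaling and no longer called. For rwhoh11a11 it was 1.08 with normexp, in place of 4.70. All fold sizes and "at least" bounds, of members and of companions, are on the array percentile scale and need not hold under another processing.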
